A study of Mus musculus with 5 samples.

Results

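The clonotypes described here are the 46 of 75709 T cell receptor (TCR) sequences that were selected on their read count, at 10 or more reads for the beta chain (TRB) or 33 or more for the alpha chain (TRA). Of these, 34 are among 42772 TRB rows and 12 are among 32937 TRA rows, a row being 1 distinct nucleotide sequence of the complementarity determining region at the V-to-J joint (CDR3) in 1 library. Both thresholds lie just above the largest count in any wild type library, so that all 46 belong to the double knockout follows from the rule and was not tested. The libraries were made from RNA of CD4 single positive (SP) thymocytes, sorted as CD24 low, CD4+, TCRb+ and CD8- cells that did not bind the aGalCer-loaded CD1d tetramer, from C57BL/6J mice aged 21 to 30 days. There were 3 wild type (WT) mice and 2 *Tet2/3* DKO mice, with the genotype Tet2-/- Tet3 flx/flx CD4cre and 1 library per mouse. *Tet2* was absent from the germline onwards in these mice, whereas *Tet3* was deleted by a Cre under *Cd4* control, which acts from the double positive stage.

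Each developing T cell joins a V and a J segment of the alpha locus, and a V, a D and a J segment of the beta locus, to make its own receptor. The joint lies in the CDR3, where bases are trimmed and added without template, so that a CDR3 sequence can serve as a tag of the cells that descend from 1 rearranged cell. The thymus normally holds a very broad set of such sequences, since its cells mature and leave within days, and a clonotype with many reads stands out against it. In bulk RNA more cells of a clone and more receptor RNA per cell cannot be told apart.

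The sequences of the largest clonotypes are shown because they identify the clonotypes, and the letters where V and J meet do most to separate one from another. The same sequence can arise in separate mice. They are written 5′ to 3′ as deposited, from the codon of the conserved cysteine to that of the closing phenylalanine, and capitals mark the bases between the last aligned V base and the first aligned J base. A sequence with no capitals had V and J alignments that touch or overlap. The 5 largest TRB clonotypes of each *Tet2/3* DKO library, with the sixth of the first library, were the following.
Tet2/3 DKO 1 TRB rank 1, TRBV13-2 with TRBJ2-1: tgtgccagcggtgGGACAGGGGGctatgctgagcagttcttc
Tet2/3 DKO 1 TRB rank 2, TRBV20 with TRBJ2-3: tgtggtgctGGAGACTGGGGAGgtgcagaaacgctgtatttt
Tet2/3 DKO 1 TRB rank 3, TRBV3 with TRBJ2-1: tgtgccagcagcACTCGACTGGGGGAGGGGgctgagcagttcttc
Tet2/3 DKO 1 TRB rank 4, TRBV13-1 with TRBJ2-7: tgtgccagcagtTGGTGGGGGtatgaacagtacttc
Tet2/3 DKO 1 TRB rank 5, TRBV20 with TRBJ2-7: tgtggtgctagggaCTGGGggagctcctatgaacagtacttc
Tet2/3 DKO 1 TRB rank 6, TRBV20 with TRBJ2-7: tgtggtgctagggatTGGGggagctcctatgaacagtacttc
Tet2/3 DKO 2 TRB rank 1, TRBV3 with TRBJ2-5: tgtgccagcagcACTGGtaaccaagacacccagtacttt
Tet2/3 DKO 2 TRB rank 2, TRBV13-2 with TRBJ1-3: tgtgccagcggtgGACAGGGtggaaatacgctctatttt
Tet2/3 DKO 2 TRB rank 3, TRBV17 with TRBJ2-4: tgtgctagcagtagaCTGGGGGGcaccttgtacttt
Tet2/3 DKO 2 TRB rank 4, TRBV17 with TRBJ2-4: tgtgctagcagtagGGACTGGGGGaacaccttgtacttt
Tet2/3 DKO 2 TRB rank 5, TRBV31 with TRBJ2-1: tgtgcctggagCATCGACAGgttcttc

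The TRA clonotypes below are the 4 of the first *Tet2/3* DKO library and the 5 largest of the second.
Tet2/3 DKO 1 TRA rank 1, TRAV16D-DV11 with TRAJ2: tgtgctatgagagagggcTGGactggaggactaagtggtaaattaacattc
Tet2/3 DKO 1 TRA rank 2, TRAV12-2 with TRAJ26: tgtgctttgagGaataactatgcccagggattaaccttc
Tet2/3 DKO 1 TRA rank 3, TRAV1 with TRAJ22: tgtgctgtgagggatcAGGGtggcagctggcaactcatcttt
Tet2/3 DKO 1 TRA rank 4, TRAV14N-1 with TRAJ18: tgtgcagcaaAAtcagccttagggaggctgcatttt
Tet2/3 DKO 2 TRA rank 1, TRAV21/DV12 with TRAJ50: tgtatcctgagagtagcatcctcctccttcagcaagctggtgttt
Tet2/3 DKO 2 TRA rank 2, TRAV10D with TRAJ53: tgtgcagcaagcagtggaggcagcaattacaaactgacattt
Tet2/3 DKO 2 TRA rank 3, TRAV12D-3 with TRAJ24: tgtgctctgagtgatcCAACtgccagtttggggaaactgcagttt
Tet2/3 DKO 2 TRA rank 4, TRAV14N-2 with TRAJ24: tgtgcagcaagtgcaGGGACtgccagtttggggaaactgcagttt
Tet2/3 DKO 2 TRA rank 5, TRAV3D-3 with TRAJ22: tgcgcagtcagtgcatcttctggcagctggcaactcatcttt

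The 3 clonotypes out of frame, all of the second *Tet2/3* DKO library, are given because they cannot encode a receptor chain.
Tet2/3 DKO 2 TRB rank 7, TRBV20 with TRBJ2-1: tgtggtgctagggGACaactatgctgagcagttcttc
Tet2/3 DKO 2 TRA rank 7, TRAV12-1 with TRAJ49: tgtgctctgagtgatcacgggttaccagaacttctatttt
Tet2/3 DKO 2 TRA rank 8, TRAV14-1 with TRAJ49: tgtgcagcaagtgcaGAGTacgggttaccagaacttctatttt

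The libraries held between 17607089 and 27267031 reads on genes, between 10519 and 13723 TRB reads and between 6401 and 11215 TRA reads. *Xist*, the RNA that coats an inactive X chromosome, had 744 reads in *Tet2/3* DKO 1 and at most 2 in any other library, while *Eif2s3y*, a Y-linked gene, had 5 reads there and 2973 to 4266 elsewhere. The labels give WT 1 as female and the others as male, so both WT 1 and *Tet2/3* DKO 1 went against their label for sex. *Tet3* had 1133, 1082 and 1440 reads in the WT libraries and 419 and 235 in the *Tet2/3* DKO libraries (log2 fold change -1.50 ± 0.18 (SE), adjusted p = 0.0012, edgeR), a call at the threshold of 0.01 that was lost without WT 2 or WT 3 (adjusted p up to 0.015). In counts per-million (CPM) *Tet2* was at 52.4 to 57.8 in WT and at 91.5 and 58.6 in *Tet2/3* DKO, and a count over the whole gene does not resolve the deleted part. *Cd4* was at 572 to 752 CPM in WT and at 389 and 433 in *Tet2/3* DKO, and *Cd24a*, low by the gate, at 6.55 to 18.6. Of the CD8 genes, *Cd8a* was at no more than 8.67 CPM in any library. *Cd8b1* was at 65.9 to 71.7 CPM in WT and at 28.6 and 27.1 in *Tet2/3* DKO. *Cd4* was called lower (adjusted p = 0.0095, edgeR), a call lost when any 1 WT library was left out (up to 0.042).

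The second *Tet2/3* DKO mouse held most of the large clonotypes, and in both mice a few sequences took most of the reads of the expanded set. *Tet2/3* DKO 1 had 11 TRB and 4 TRA clonotypes over the thresholds, and *Tet2/3* DKO 2 had 23 and 8. They were 0.136% and 0.417% of the TRB rows of these libraries, and 0.0618% and 0.196% of the TRA rows. Together they held 997 of 11808 TRB reads in *Tet2/3* DKO 1, or 8.44% (95% Wilson interval 7.96% to 8.96%), and 3698 of 10519 in *Tet2/3* DKO 2, or 35.2% (34.2% to 36.1%). For TRA they held 366 of 9758 reads, or 3.75% (3.39% to 4.15%), and 1004 of 6401 reads, or 15.7% (14.8% to 16.6%). The share of either chain was larger in the second mouse, as a description of these libraries, since the clonotypes were selected on the same counts. The intervals cover the counting error of reads only and not that of molecules, because the reads carry no molecular identifiers.

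The size distributions of the 2 mice had different shapes. A single TRB clonotype, TRBV13-2 with TRBJ2-1, had 632 reads in *Tet2/3* DKO 1, 63.4% of the reads of the expanded TRB clonotypes there, and the next had 115, 53, 36 and 32 reads. The other 6 had between 13 and 31 reads. The 5 largest of *Tet2/3* DKO 2 had 971, 813, 772, 410 and 312 reads, with a gap to the sixth at 80 reads. These 5 made up 88.6% of the reads of the expanded TRB clonotypes and 31.2% of all TRB reads of the library. Of the remaining 18, 10 had 20 or fewer reads.

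The largest TRA clonotype also stood alone in *Tet2/3* DKO 1, while the TRA sizes of *Tet2/3* DKO 2 fell in small steps. *Tet2/3* DKO 1 had 1 TRA clonotype of 241 reads, TRAV16D-DV11 with TRAJ2, followed by 45, 42 and 38 reads. *Tet2/3* DKO 2 had 246, 196, 181, 150 and 88 reads in its 5 largest, then 67, 43 and 33. The first 5 held 13.5% of all TRA reads of that library, and the fifth had 1.31 times the reads of the sixth, against 3.90 times for TRB. The plot of reads against rank shows 1 clonotype of each chain standing alone in the first mouse and, for TRB, a group of 5 in the second.

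**Figure D1:**
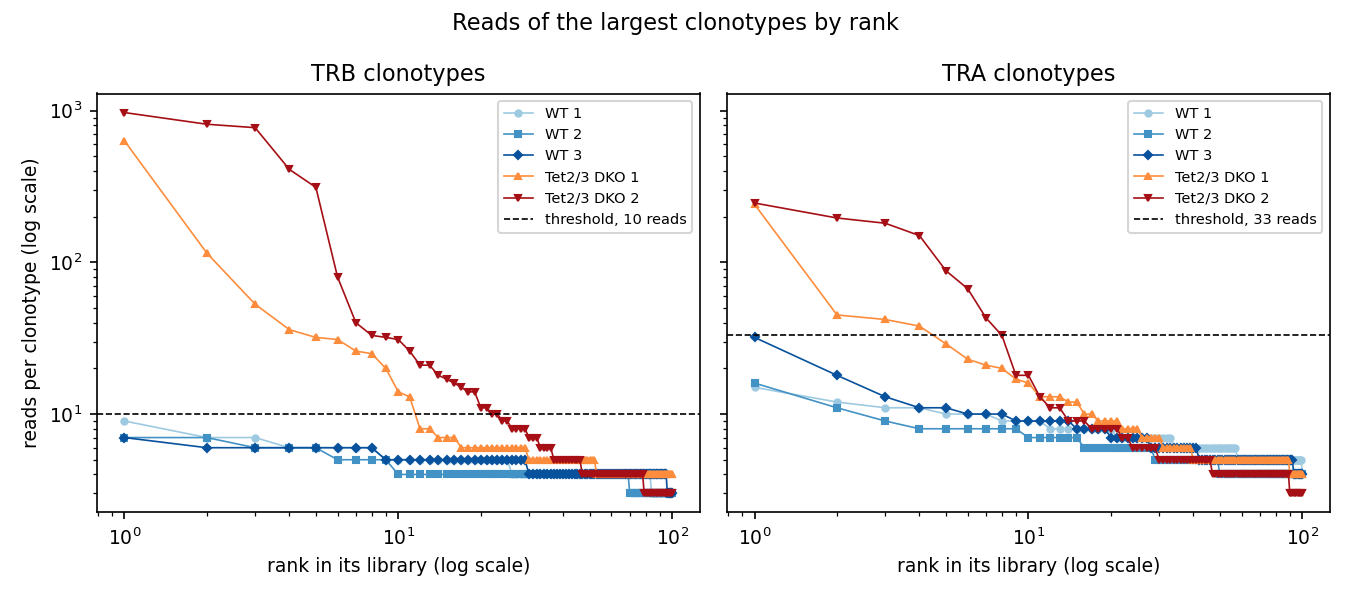
Reads per clonotype (vertical, log scale) against rank within the library (horizontal, log scale, first 100 ranks) for TRB and TRA, 1 line per library, with the threshold as a dashed line. The largest TRB clonotype had 632 reads in Tet2/3 DKO 1 and 971 in Tet2/3 DKO 2, against 9, 7 and 7 in the WT libraries.

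At the threshold the separation was narrow. The smallest TRB clonotypes inside it had 10, 10, 11 and 11 reads, all in *Tet2/3* DKO 2, and just outside stood 1 row of 9 reads in WT 1 and 2 rows of 9 reads in *Tet2/3* DKO 2. For TRA the smallest inside had 33, 38 and 42 reads, and the first outside had 32 reads (WT 3), followed by 29, 23 and 21 reads, all of *Tet2/3* DKO 1. The row of 32 reads in WT 3 was of another kind, since its CDR3 was found in every library, at 15, 16 and 32 reads in WT and at 21 and 8 in *Tet2/3* DKO. The largest TRA row under the threshold in *Tet2/3* DKO 2 had 18 reads.

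The expanded TRB clonotypes drew on many V segments and the expanded TRA clonotypes repeated none by name. The 34 TRB clonotypes used 12 V segments, 7 of them in both mice, and 9 J segments, 4 of them in both mice. TRBV20 was used by 7 clonotypes (282 reads), TRBV13-2 by 6 (1516 reads), TRBV17 by 4 (1216 reads), and TRBV3 and TRBV13-3 by 3 each (1034 and 125 reads). The 12 TRA clonotypes used 12 different V segments by first hit. By family there were repeats, with TRAV14N-1, TRAV14N-2 and TRAV14-1, and with TRAV12-1, TRAV12-2 and TRAV12D-3. The copy is uncertain for some of these (below). They used 9 J segments, of which 1, TRAJ22, occurred in both mice. No clonotype of one mouse was an expanded clonotype of the other.

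The share of the other rows that used the same segment is given beside these numbers, and it lay below that of the clonotypes for some segments and above it for others. TRBV17 was the V segment of 4 of 34 clonotypes, whereas it made up 2.47% to 2.61% of the TRB rows of the WT libraries and 2.29% and 2.79% of the other TRB rows of *Tet2/3* DKO 1 and 2. TRBV20 was used by 7 of 34, against 4.44% to 4.94% in WT and 6.83% and 5.88% of the other rows in *Tet2/3* DKO. TRBV13-2 was used by 6 of 34, against 8.75% to 10.5% of the other rows over the 5 libraries. TRBV3 and TRBV13-3 were used by 3 of 34 each, against 8.80% to 9.75% and 6.63% to 7.39%, and TRBV31 was used by 1 of 34, against 6.68% to 9.90%. Both large TRBV17 clonotypes, of 772 and 410 reads, joined TRBJ2-4, and their CDR3 differ in length (36 and 39 bases). The J segments of the second beta cluster (TRBJ2) were used by 11 of 11 clonotypes in *Tet2/3* DKO 1 and by 15 of 23 in *Tet2/3* DKO 2, against 63.7% and 66.5% of the other rows of those libraries. Rows of 1 library are not replicates and the clonotypes were few, so these shares are given with no test.

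The rows under the threshold, which the selection left out, give the use of these V segments in each genotype, as a description with no test. TRBV31 was the V segment of 9.10%, 9.77% and 9.90% of the WT TRB rows and of 6.68% and 6.83% of those of *Tet2/3* DKO. TRBV15 went the other way, with 4.22%, 3.73% and 4.29% in WT and 6.11% and 6.43% in *Tet2/3* DKO. TRBV12-2 was at 1.67%, 1.95% and 1.98% in WT and at 3.11% and 3.08% in *Tet2/3* DKO. TRBV20, which the largest number of expanded clonotypes used, was also higher in *Tet2/3* DKO (values above), whereas TRBV13-1 (7.24% to 7.77% in WT, 6.34% and 6.57% in *Tet2/3* DKO) and TRBV5 (6.75% to 7.32%, against 6.72% and 6.25%) were lower. In these 6 of the 12 segments the genotypes did not overlap, which is near the 57.7% (15 of 26) of all TRB V segments found in every library and so is nothing particular to those of the clonotypes. The plot of V segments in the other rows shows TRBV3, TRBV17 and TRBV13-2 with overlapping values. The clonotypes of 971 and 312 reads in *Tet2/3* DKO 2 used TRBV3, which lay within the WT range in the other rows of that library (8.81%), and TRBV31, which lay below it.

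**Figure D2:**
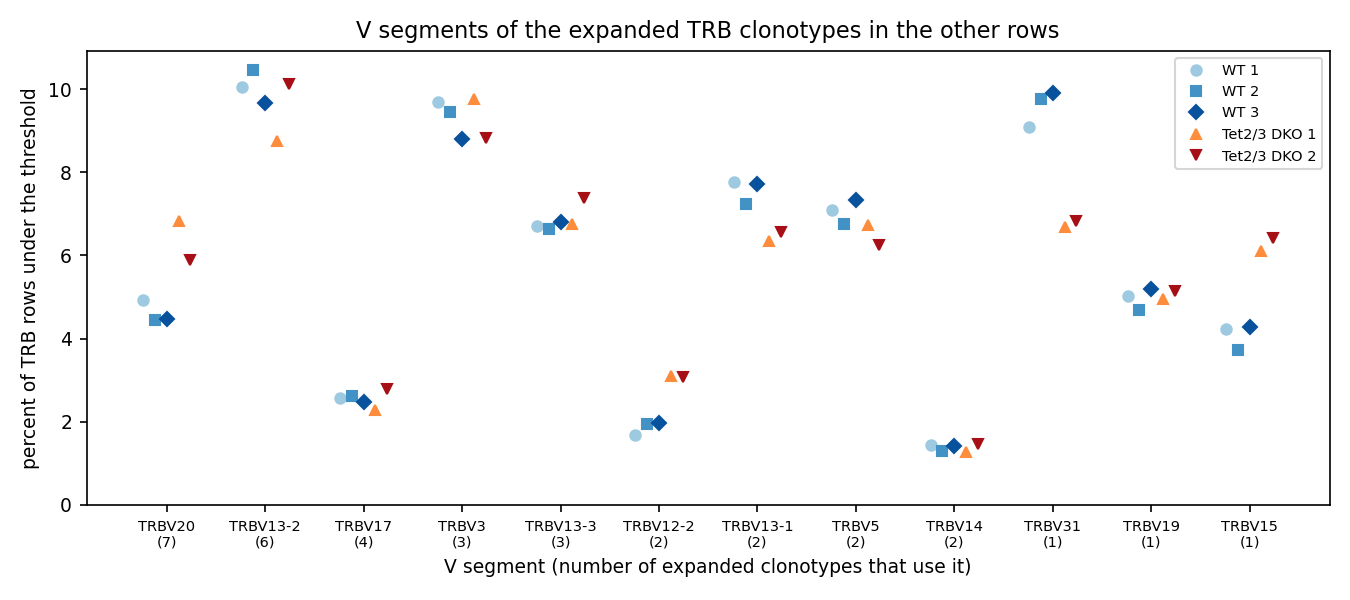
Percent of the TRB rows under the threshold (vertical) that use each V segment of an expanded TRB clonotype (horizontal, with the number of expanded clonotypes in brackets), 1 point per library. TRBV31 was at 9.10% to 9.90% in WT and at 6.68% and 6.83% in Tet2/3 DKO, while TRBV15 and TRBV12-2 were higher in Tet2/3 DKO.

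Invariant natural killer T (iNKT) cells, a lineage with a nearly fixed alpha chain that the tetramer gate was meant to remove, use TRAV11 with TRAJ18, and mucosal-associated invariant T (MAIT) cells use TRAV1 with TRAJ33. None of the 12 expanded TRA clonotypes had either pair. TRAJ18 occurred once, with TRAV14N-1 (38 reads, *Tet2/3* DKO 1), and TRAV1 occurred once, with TRAJ22 (42 reads, *Tet2/3* DKO 1). The iNKT pair had 7, 5 and 4 TRA reads in the WT libraries and 8 and 1 in the *Tet2/3* DKO libraries, and no row of it exceeded 3 reads. The MAIT pair had at most 3 reads in any library.

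V segments were better resolved for TRB than for TRA. Of the 46 clonotypes, 41 had a single V hit and 2 had a tie for the first, both TRA clonotypes of *Tet2/3* DKO 2 (TRAV12D-3 and TRAV3D-3). Among all TRA rows 57.3% to 60.4% per library had a tied first hit, against 0.613% to 0.925% of TRB rows. The alpha locus holds near-identical copies of many V segments, which in the names carry the letters D and N, so the copy given for TRAV10D, TRAV12D-3, TRAV14N-1, TRAV14N-2 and TRAV3D-3 is uncertain.

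The CDR3 of the largest TRB clonotypes in *Tet2/3* DKO 2 were short. Over the 33 productive TRB clonotypes (in frame and without a stop codon) the median length was 42 bases (range 27 to 51), the same median as in the other rows of every library. The 5 largest of *Tet2/3* DKO 2 were 27 to 39 bases long, and the TRBV31 clonotype with 9 codons was the shortest of all. Weighted by reads, CDR3 of 13 or fewer codons made up 91.0% of the productive reads of the expanded TRB clonotypes in *Tet2/3* DKO 2, against 43.0% in the other rows of that library. The corresponding shares in *Tet2/3* DKO 1 were 5.62% and 43.0%, so in one mouse the share lay above that of the other rows and in the other mouse below it.

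The largest TRA clonotype had 17 codons in *Tet2/3* DKO 1 and 15 in *Tet2/3* DKO 2. The 10 productive ones had a median of 43.5 bases (range 36 to 51). The TRA clonotype of 241 reads in *Tet2/3* DKO 1 had 17 codons, a length that held 0.660% of the productive reads of the other TRA rows there. All 6 of *Tet2/3* DKO 2 had 14 or 15 codons, and 15 codons held 69.4% of their reads against 12.0% in the other rows. With so few clonotypes, 1 of them can move each of these shares widely.

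**Figure D3:**
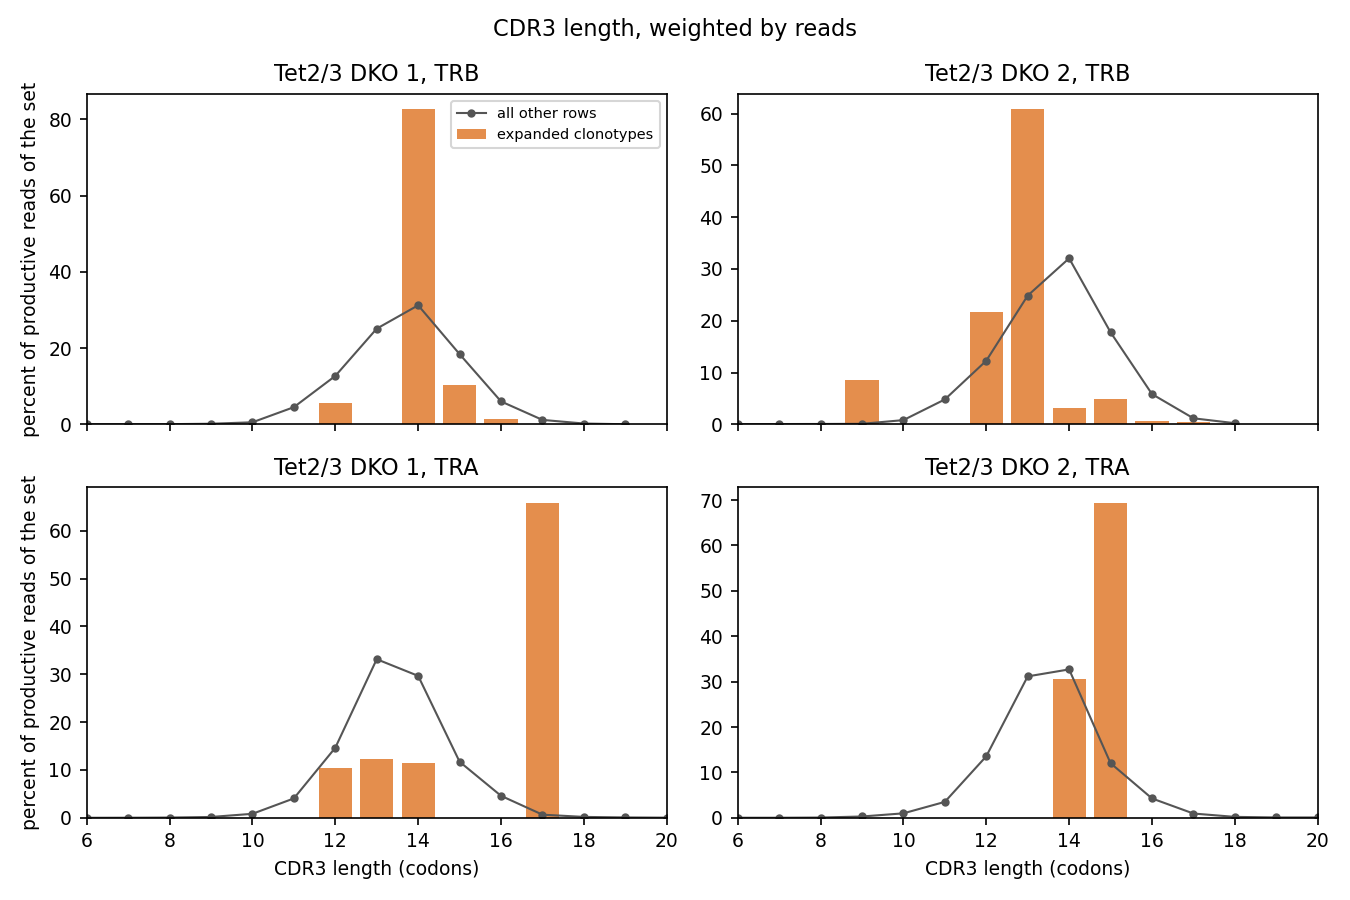
Percent of productive reads of the set (vertical) by CDR3 length in codons (horizontal), for the expanded clonotypes (bars) and all other rows (line) of each Tet2/3 DKO library and chain. The bars peak at 13 codons for TRB in Tet2/3 DKO 2 (60.9% of reads) and at 17 codons for TRA in Tet2/3 DKO 1 (65.8%), where the other rows held 24.9% and 0.660%.

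The joints of the TRB clonotypes were close in size to those of the other rows. The number of bases between V and J in productive TRB clonotypes had a median of 10 (range 4 to 18), and the median of the other rows was 9 in each library. A D segment was assigned to 30 of 33 (TRBD1 in 12 and TRBD2 in 18), or 90.9%, against 70.9% to 72.2% of the other productive TRB rows. In TRA the median was 2.5 bases (range -4 to 5, a negative value being an overlap of V and J alignments). No base stood between V and J in 3 of the 10 productive TRA clonotypes, all in *Tet2/3* DKO 2 with 246, 196 and 88 reads, against 21.1% to 24.3% of the other productive TRA rows.

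Of the 46 clonotypes, 43 were productive. All 11 TRB and 4 TRA clonotypes of *Tet2/3* DKO 1 were, as were 22 of 23 TRB and 6 of 8 TRA clonotypes of *Tet2/3* DKO 2. The 3 exceptions were out of frame: TRBV20 with TRBJ2-1 at 40 reads (37 bases), TRAV12-1 with TRAJ49 at 43 reads (40 bases) and TRAV14-1 with TRAJ49 at 33 reads (43 bases). Both TRA exceptions thus used TRAJ49. A T cell can carry and transcribe a failed rearrangement on its other chromosome. Whether these sequences come from the same cells as a productive clonotype was not tested. In the other rows 95.7% to 97.0% of TRB and 86.8% to 87.8% of TRA were productive.

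Most of the clonotypes were found in 1 mouse only, as were most rows of few reads. The exact CDR3 of 33 of 46 had no read in the other 4 libraries, and the other 13 (9 TRB, 4 TRA) had at most 7 reads in any of them. TRB clonotypes were found elsewhere at 18.2% in *Tet2/3* DKO 1 and 30.4% in *Tet2/3* DKO 2, against 3.97% and 4.75% of the TRB rows of 2 reads and 4.88% and 8.70% of those of 5 to 9 reads in the same libraries. For TRA the shares were 1 of 4 and 3 of 8 clonotypes, against 23.1% and 28.1% of the rows of 2 reads and 4 of 5 and 1 of 2 rows of 17 to 32 reads. The largest TRB clonotype of *Tet2/3* DKO 1 (632 reads) had 5 reads in WT 1 and 5 in *Tet2/3* DKO 2. Of the *Tet2/3* DKO 2 clonotypes, that of 971 reads had 1 read in WT 2, the one of 813 had none elsewhere, and that of 772 had 3 in *Tet2/3* DKO 1. The clonotypes of 410 and 312 reads had 4 and 6 reads in WT 2, and the first of them 2 more in WT 3.

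Among TRA clonotypes the one of 88 reads (TRAV3D-3 with TRAJ22, *Tet2/3* DKO 2), which has no base between V and J, was the most widespread, with 4 reads in WT 1, 5 in WT 3 and 2 in *Tet2/3* DKO 1. That of 196 reads, also without a base between, had 4 reads in WT 2 and 1 in WT 3, and that of 246 reads had 2 in *Tet2/3* DKO 1. The TRA clonotype of 241 reads in *Tet2/3* DKO 1 had 2 reads in WT 1 and 2 in *Tet2/3* DKO 2. The remaining 8 TRA clonotypes were seen in their own library only.

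Libraries that share a sequencing index, as the names of the deposited tables give it, can exchange reads. *Tet2/3* DKO 2 shares an index with WT 2 and WT 3, where its 23 TRB clonotypes had 15 and 2 reads, and none with WT 1 and *Tet2/3* DKO 1, where they had 0 and 3. *Tet2/3* DKO 1 shares an index with WT 1 and WT 3, where its 11 TRB clonotypes had 12 and 2 reads, and none with WT 2 and *Tet2/3* DKO 2, where they had 4 and 9. Reads elsewhere thus occurred with and without a shared index, and the 8 TRA clonotypes of *Tet2/3* DKO 2 had 4 and 6 reads in WT 2 and WT 3 and 4 in each of the other libraries. Summed over the clonotypes of a library and chain, reads elsewhere came to at most 1.20% of their own reads in any library. For single clonotypes the share could be higher, as for rank 5 of TRB in *Tet2/3* DKO 1, with 7 reads in WT 1 against 32 of its own. The source of the reads elsewhere was not tested.

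Rows that differ from a large clonotype by a single base, as a read error would leave, were almost absent. For the 31 clonotypes of *Tet2/3* DKO 2, including those of 971 and 813 reads, no row of the same library and chain differed by 1 substitution or by 1 inserted or deleted base. The same held in *Tet2/3* DKO 1 for all but 3 of the 15. The second TRA clonotype there (45 reads) had 1 neighbour of 2 reads with the substitution G12T, positions being counted from 1 at the first base of the CDR3. Among the rows of 2 reads in *Tet2/3* DKO 2, 4.39% for TRB and 32.4% for TRA had 1 or more such neighbours. For TRB in *Tet2/3* DKO 1 the order was the other way, with 2 of 11 clonotypes (18.2%), which are neighbours of each other, against 6.14% of the rows of 2 reads and 9.76% of those of 5 to 9 reads. For TRA there it was 1 of 4 clonotypes, against 36.7% of the rows of 2 reads. At 2 substitutions, a distance chosen after seeing these counts, 6 of the 46 clonotypes had 7 rows in all, 5 of them with the same V and J. Whether the program that assembled the clonotypes had already merged such rows is not given in the sources used here. The lowest base quality score within the CDR3 was 41 to 45 for the expanded clonotypes.

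Only 1 pair of the 46 expanded clonotypes was near-identical. Ranks 5 and 6 of TRB in *Tet2/3* DKO 1, both TRBV20 with TRBJ2-7, differed by C15T, encode the same amino acids and had 32 and 31 reads. The form with C had 7, 4 and 2 reads in WT 1, 2 and 3 and 4 in *Tet2/3* DKO 2, and it was the only 1 of the 46 found in every library. The form with T had no read outside *Tet2/3* DKO 1. A further row of 3 reads differed from the form with C by A22G. In size the 2 forms differed by less than the counting error of reads.

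The ranks of TRB and TRA shares give candidates for chains of the same cells, although bulk RNA does not link chains and the order alone pairs them. In *Tet2/3* DKO 1 the first TRB clonotype (TRBV13-2, 5.35% of TRB reads) stood beside the first TRA clonotype (TRAV16D-DV11, 2.47% of TRA reads), both far above the second, and this pair is the least ambiguous by size. The share of the TRB clonotype was 2.17 times that of the TRA clonotype at rank 1, 2.11 times at rank 2, and 1.04 and 0.783 times at ranks 3 and 4. In *Tet2/3* DKO 2 the 5 largest TRB clonotypes, at 9.23%, 7.73%, 7.34%, 3.90% and 2.97%, stood beside TRA clonotypes at 3.84%, 3.06%, 2.83%, 2.34% and 1.37%. Their ratios were 1.66 to 2.60, and the intervals of TRB and TRA did not overlap at any of these 5 ranks.

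Below these ranks the ratio turned. At ranks 6 to 8 of *Tet2/3* DKO 2 it was 0.727, 0.566 and 0.609 with overlapping intervals. Of these, both chains at rank 7 and the TRA clonotype at rank 8 were out of frame. With the TRA threshold of 33 reads applied to both chains, *Tet2/3* DKO 1 had 4 TRB and 4 TRA clonotypes and *Tet2/3* DKO 2 had 8 and 8. The counts of *Tet2/3* DKO 2 include its out-of-frame clonotypes, so they do not match receptor chains 1 to 1. Close ranks cannot be assigned to one another, as the 3 largest TRA clonotypes of *Tet2/3* DKO 2 had between 181 and 246 reads. The plot of shares by rank shows the distance between the chains at the largest clonotypes.

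**Figure D4:**
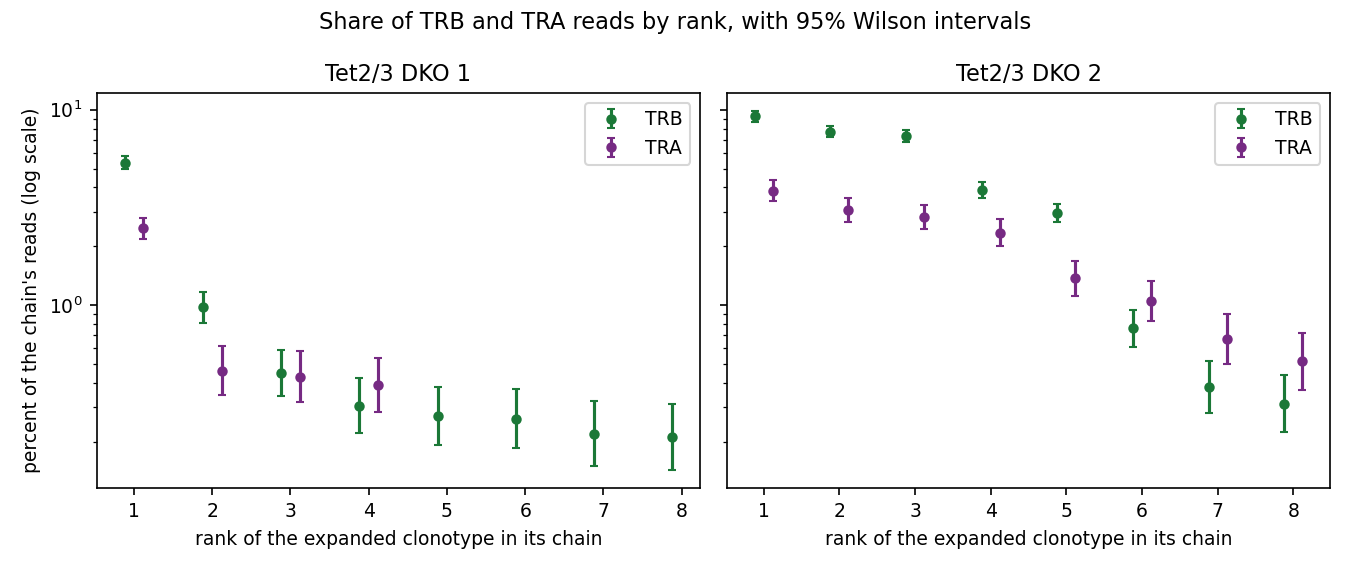
Percent of the reads of its chain (vertical, log scale) held by each expanded clonotype of rank 1 to 8 (horizontal) in each Tet2/3 DKO library, TRB and TRA side by side, with 95% Wilson intervals as bars. At ranks 1 to 5 of Tet2/3 DKO 2 the TRB share was 1.66 to 2.60 times the TRA share.

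The gene tables, which count reads anywhere on a gene, were read for the V genes of the clonotypes shown, in CPM after TMM scaling (coordinates in mm10). *Trbv17* (chr6:41163062-41163556), the V gene of the clonotypes of 772 and 410 reads, was at 20.3, 23.3 and 25.7 CPM in WT, 28.2 in *Tet2/3* DKO 1 and 85.4 in *Tet2/3* DKO 2. *Trbv3* (chr6:41048290-41048828), that of the clonotype of 971 reads, was at 105, 104 and 104 CPM in WT, 104 in *Tet2/3* DKO 1 and 164 in *Tet2/3* DKO 2. Both were highest in *Tet2/3* DKO 2, the library of these 3 clonotypes. *Tet2/3* DKO 1 also has a TRBV3 clonotype, of 53 reads, and a TRBV17 clonotype, of 13 reads. *Trbv13-2* (chr6:41121396-41121832), used by the clonotypes of 632 and 813 reads, was at 105, 109 and 108 CPM in WT and at 122 and 127 in *Tet2/3* DKO 1 and 2. *Trbv31* (chr6:41557691-41558452) was at 82.8, 79.9 and 88.0 CPM in WT and lower in both *Tet2/3* DKO libraries, at 55.6 and 57.9, although the clonotype of 312 reads uses it. *Trbv20* (chr6:41188273-41188977) was at 47.0 ± 4.08 CPM (SD, n = 3) in WT, 73.9 in *Tet2/3* DKO 1, which has 4 of its 7 clonotypes, and 53.1 in *Tet2/3* DKO 2. *Trbv13-1* (chr6:41116007-41116468), the V gene of a clonotype of 36 reads in *Tet2/3* DKO 1, was at 47.2 to 56.5 CPM in WT and at 41.2 and 39.3 in *Tet2/3* DKO.

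The alpha V genes of the largest TRA clonotypes were read in the same way. *Trav16d-dv11* (chr14:53047287-53047821) was at 4.45, 3.79 and 3.64 CPM in WT, 17.6 in *Tet2/3* DKO 1, which has its clonotype of 241 reads, and 4.25 in *Tet2/3* DKO 2. *Trav21-dv12* (chr14:53875984-53876752) was at 5.57, 6.36 and 7.11 CPM in WT, 6.58 in *Tet2/3* DKO 1 and 19.5 in *Tet2/3* DKO 2, which has its clonotype of 246 reads. *Trav10d* (chr14:52810934-52811496) was at 1.93, 1.77 and 1.82 CPM in WT, 2.15 in *Tet2/3* DKO 1 and 10.3 in *Tet2/3* DKO 2, which has its clonotype of 196 reads. Each was thus high in the 1 library with the clonotype. *Trav1*, used by a clonotype of 42 reads in *Tet2/3* DKO 1, was at 6.63 CPM there, 3.19 in *Tet2/3* DKO 2 and 3.62 to 5.26 in WT, and *Trav12-2*, used by one of 45 reads, took 2.44% of all *Trav* reads there, 2.14% in *Tet2/3* DKO 2 and 1.93% to 2.07% in WT. Both were highest in the library with their clonotype, by less than the 3 above. *Trav12d-3*, *Trav14n-1*, *Trav14n-2* and *Trav3d-3* had 0 or 1 read in every library, those with their clonotypes included, and reads that align equally well to several places are not counted in these tables.

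**Figure D5:**
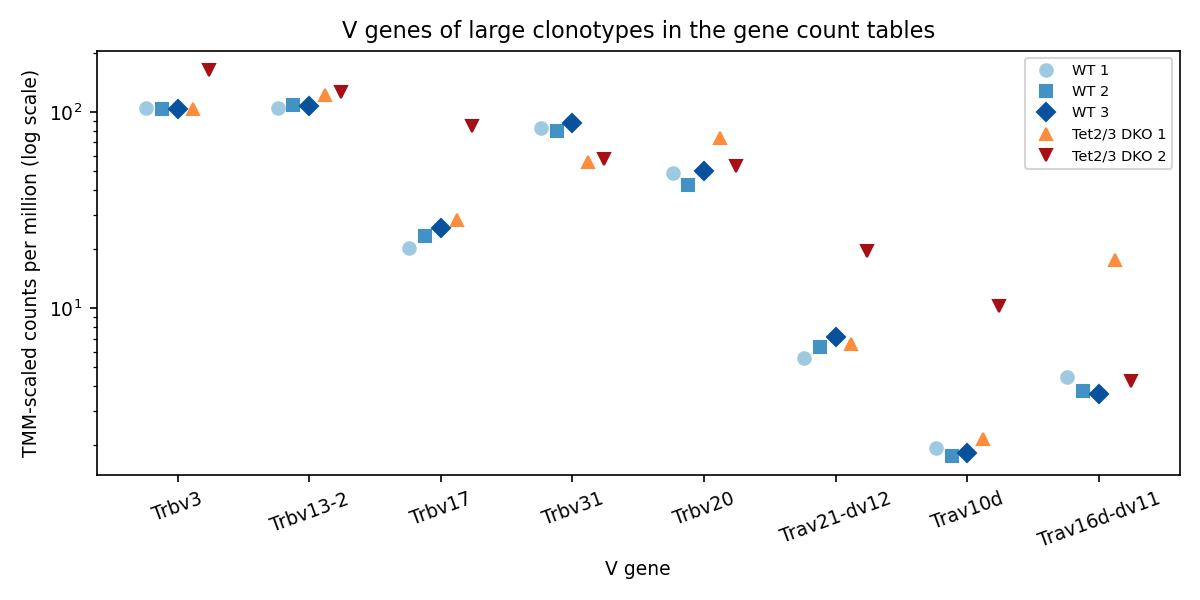
TMM-scaled CPM (vertical, log scale) of 8 V genes (horizontal) that large clonotypes use, 1 point per library. Trbv17, Trbv3, Trav21-dv12 and Trav10d were highest in Tet2/3 DKO 2, Trav16d-dv11 was highest in Tet2/3 DKO 1, and Trbv31 was lower in both Tet2/3 DKO libraries than in WT.

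The amount of the chains is given first over all rows, which rests on no selection, and then with the expanded clonotypes apart. All TRB rows came to 469, 466 and 503 reads per-million gene reads in WT and 553 and 597 in *Tet2/3* DKO, a difference of 95.5 with no overlap between genotypes (exact permutation p = 0.1, two-sided, the smallest that 3 against 2 libraries can give). Of these the expanded clonotypes made up 46.7 and 210.0, and the other rows 506 and 387, in *Tet2/3* DKO 1 and 2. All TRA rows came to 419, 380 and 411 in WT and 457 and 364 in *Tet2/3* DKO (difference 6.72, exact permutation p = 1.0), of which the expanded clonotypes made up 17.1 and 57.0 and the other rows 439 and 307. The amounts of the other rows are given as descriptions, since the threshold removed reads from the *Tet2/3* DKO libraries alone. In both chains *Tet2/3* DKO 2, the library with the larger clonotypes, had the lowest value of the other rows and *Tet2/3* DKO 1 the highest.

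The frame and length of the other rows were close in both genotypes. These too are descriptions, since the threshold removed rows from the *Tet2/3* DKO libraries alone. Productive rows held 96.3% ± 0.437 (SD, n = 3) of the other TRB reads in WT and 96.7% ± 0.675 (n = 2) in *Tet2/3* DKO, and for TRA 88.8% ± 0.290 and 88.4% ± 0.427. The read-weighted CDR3 length of productive TRB rows was 41.2, 41.1 and 41.1 bases in WT and 41.0 and 41.0 in *Tet2/3* DKO, a difference of -0.134 bases with no overlap between genotypes. Without the rows of 1 read the difference was -0.0742 bases and the genotypes overlapped. With the expanded clonotypes included the difference was -0.650 bases, a description, since the selection placed all of them in *Tet2/3* DKO. For TRA it was 40.4 to 40.5 bases in WT and 40.4 and 40.5 in *Tet2/3* DKO (exact permutation p = 0.8, adjusted p = 0.8).

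The constant-region genes, which all chains of a locus share, were not called at the study's threshold of an adjusted p of 0.01 (edgeR). *Trac*, the constant region of the alpha chain, was at 2652, 2428 and 2692 CPM in WT and 2761 and 2201 in *Tet2/3* DKO (log2 fold change -0.063 ± 0.11 (SE), adjusted p = 0.79). *Trbc1* was at 1221, 1158 and 1293 CPM in WT and higher in both *Tet2/3* DKO libraries, at 1565 and 1454, short of the threshold (0.30 ± 0.084, adjusted p = 0.058). *Trbc2* was at 1207, 1163 and 1311 CPM in WT and 1271 and 1313 in *Tet2/3* DKO (0.075 ± 0.083, adjusted p = 0.66). The 2 beta constant genes are near-identical copies, so their split is uncertain.

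Over all genes, 327 of 13525 tested were called higher in *Tet2/3* DKO (2.42%) and 203 lower (1.50%), with a median log2 fold change of 0.0076. Leaving out any 1 of the libraries moved these counts by more than 1.5 times: without WT 1, 2 or 3 there were 104, 70 and 78 higher and 48, 40 and 49 lower, and without *Tet2/3* DKO 1 or 2 there were 945 and 685 higher and 367 and 464 lower. Of the genes for assembling and carrying the TCR (recombinases, *Dntt*, *Ptcra*, the constant regions and the CD3 chains), 8 of 11 were tested and 0 were called in either direction by edgeR, with a median of -0.012. At an unadjusted p under 0.05 there were 1 higher and 2 lower, and DESeq2 called 1, *Cd247*. *Cd247*, the zeta chain, was at 694 to 752 CPM in WT and 555 and 486 in *Tet2/3* DKO (adjusted p = 0.013, edgeR). *Dntt*, the enzyme that adds bases to the joints, was at 17.2 to 23.6 CPM in WT and 13.6 and 14.2 in *Tet2/3* DKO (adjusted p = 0.11, edgeR). *Rag1* and *Rag2*, which cut the segments, had at most 1 read in any library.

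No proliferation gene was called by edgeR, and their levels were lower in *Tet2/3* DKO 1 than in *Tet2/3* DKO 2. Of 13 tested, 0 were called (0 higher and 1 lower at an unadjusted p under 0.05), the median log2 fold change was -0.13, and DESeq2 called *Top2a* lower. Their summed level was 1257 CPM in *Tet2/3* DKO 1 and 1917 in *Tet2/3* DKO 2, the library with the larger clonotypes, and 1621 to 1819 in WT. *Ccnb1*, a cyclin of mitosis, had the highest log2 fold change of the 13. It was at 61.5 to 73.3 CPM in WT, 47.0 in *Tet2/3* DKO 1 and 130 in *Tet2/3* DKO 2 (adjusted p = 0.58, edgeR). In *Tet2/3* DKO 2, *Top2a* (171 CPM) and *Pcna* (296) lay below WT (191 to 239 and 317 to 338). *Mki67* and *Bub1* lay inside the WT range there and the other genes above it. The relation of these genes to the clonotypes was not tested, with 1 library per mouse.

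Genes of other cells that could enter the sort were read beside the clonotypes, with calls by edgeR. Of the 4 iNKT and innate-like genes, 3 were called higher: *Zbtb16*, which encodes the factor PLZF of innate-like T cells, was at 0.548 to 1.24 CPM in WT and 12.0 and 14.2 in *Tet2/3* DKO (log2 fold change 3.85 ± 0.29 (SE), adjusted p = 8.6e-05, edgeR). *Klrb1c* (NK1.1) and *Ncr1* (NKp46), receptors of natural killer cells, were at 6.86 and 17.8 CPM and at 1.48 and 2.24 CPM in *Tet2/3* DKO, against at most 2.36 and 0.0387 in WT (adjusted p = 0.0051 and 0.0017, edgeR). *Slamf1*, which iNKT precursors carry, was called lower, at 70.3 to 84.9 CPM in WT and 41.8 and 40.1 in *Tet2/3* DKO (adjusted p = 0.0015, edgeR). The calls of *Klrb1c* and *Ncr1* were lost when any 1 WT library was left out (adjusted p up to 0.050 and 0.015), and that of *Slamf1* without WT 2 or WT 3 (up to 0.016).

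Of the CD8 genes, 0 of 2 were called higher (1 at an unadjusted p under 0.05, 0 by DESeq2). *Cd8a* was at 2.71 to 5.39 CPM in WT and at 5.77 and 8.67 in *Tet2/3* DKO (adjusted p = 0.13, edgeR), and *Cd8b1* was called lower, at 65.9 to 71.7 CPM in WT and 28.6 and 27.1 in *Tet2/3* DKO (adjusted p = 0.00017, edgeR). Of the regulatory T cell genes, *Foxp3*, their lineage factor, was called lower (44.4 to 58.1 CPM in WT, 17.9 and 24.3 in *Tet2/3* DKO, adjusted p = 0.0019, edgeR), a call lost without WT 2 or WT 3 (up to 0.021), and the other 3 were not called. Of the myeloid genes 0 of 4 were called (3 higher at an unadjusted p under 0.05, 0 by DESeq2, median log2 fold change 1.63), yet their summed level was 22.0 and 50.1 CPM in *Tet2/3* DKO 1 and 2 against 7.40 to 13.2 in WT, most of it *Lyz2*. Of the B cell genes 2 of 4 were tested and 0 called (1 higher at an unadjusted p under 0.05, 0 by DESeq2), at summed levels of 5.61 to 6.92 CPM in WT and 9.11 and 8.17 in *Tet2/3* DKO. Of the gamma-delta genes 2 of 4 were found by symbol, *Trdc* and *Sox13*, and 0 were called (1 lower at an unadjusted p under 0.05, 0 by DESeq2), at summed levels of 12.8 to 17.6 CPM in WT and at 18.5 and 15.5 in *Tet2/3* DKO. The part of any of these cells in the clonotypes was not tested.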

How the data were processed

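RNA of sorted CD4 SP thymocytes was made into SMART-seq v4 and Nextera XT libraries and sequenced without molecular identifiers. Per the labels and the study's methods, the authors trimmed reads with fastp 0.21.0, aligned them with STAR 2.7.5a to mm10 and deposited the unnormalized count of reads per gene, from which the column without regard to strand was used. Reads without a gene (3.51% to 5.70%), on overlapping genes (6.47% to 6.73%) or with several alignments (7.88% to 8.20%) were left out. The authors also deposited, for each library and chain, tables of clonotypes with a read count, the fraction of the chain's reads and a base quality score. The clonotype program is not given in the sources used here. Shares were computed from the counts and checked against the deposited fraction.

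The members, gene lists and segments to look for were chosen with earlier results of these data known. V and J are the first hits, without the allele. Named clonotypes are the 5 largest per chain and library and those out of frame, found elsewhere or near-identical. Genes named are those of the lists (TCR assembly, proliferation, iNKT and innate-like, CD8, B, myeloid, gamma-delta and regulatory T cells, and the sex check, of which *Xist* and *Eif2s3y* are given) and the V genes of the clonotypes shown. *Tet2*, *Tet3*, *Cd4* and *Cd24a* were added to check the labels. Of 55487 gene identifiers, 55141 were named from GENCODE M21 (GRCm38).

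Genes were tested with edgeR 4.0.16 in R 4.3.3 (quasi-likelihood test with the newer dispersion moderation, TMM scaling, filterByExpr by genotype, Benjamini-Hochberg adjustment over all tested genes, threshold 0.01), with DESeq2 1.42.0 as an alternative. SE is the absolute log2 fold change over the root of the F statistic. Amounts over all rows were compared by exact permutation over libraries in Python 3.11.15, and the scripts were tested on simulated data. Permutation p-values of the other rows are not given, since the threshold removed rows from *Tet2/3* DKO alone. Each mouse gave 1 library, and 2 *Tet2/3* DKO libraries limit precision. Other alternatives changed the thresholds, the merging of rows, the inclusion of expanded clonotypes or of rows of 1 read, the filter, scaling or moderation, used the replicate number as a block, or left out each library.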

Additional observations from a re-analysis of the deposited data

How the results depend on the processing

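The number of expanded clonotypes depended most on the read threshold. At 5 TRB or 17 TRA reads there were 52 TRB and 9 TRA clonotypes in *Tet2/3* DKO 1, 46 TRB in *Tet2/3* DKO 2, and 63 TRB and 2 TRA in the WT libraries together. At 20 TRB or 66 TRA reads there were 13 TRB clonotypes in *Tet2/3* DKO 2 and 1 TRA clonotype in *Tet2/3* DKO 1, and *Tet2/3* DKO 1 also had 1 TRA clonotype when the threshold was a share of the reads of the chain. Merging rows at 1 substitution put 2 WT TRB rows over the threshold. The other 27 settings of these counts stayed within 1.5 times, and leaving out tied V hits kept the numbers of segments within 1.5 times.

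Of the 6 measures of the rows under the threshold, 4 turned direction with the expanded clonotypes included: TRB reads per-million gene reads (95.5 higher in *Tet2/3* DKO), TRA reads per-million (6.72), TRA productive reads (0.125 percentage points) and TRA CDR3 length (0.401 bases), since those clonotypes then enter the sums. The other 2 kept their direction and grew, to 0.981 percentage points for TRB productive reads and -0.650 bases for TRB length. Without the rows of 1 read, 70.2% to 80.9% of all rows, the differences shrank to -1.83 for TRB and -14.9 for TRA reads per-million, and to -0.0742 bases for TRB length. Leaving out 1 library gave differences from -92.1 to 26.4 for TRB reads per-million, from -96.8 to 36.1 for TRA, from -0.0804 to 0.874 percentage points for TRB productive reads, from -0.163 to -0.105 bases for TRB length, from -0.732 to -0.128 points for TRA productive reads and from -0.110 to 0.0531 bases for TRA length. For *Trac* the log2 fold change ran from -0.24 to 0.077 (0.077 without *Tet2/3* DKO 2), for *Trbc1* from 0.25 to 0.34 and for *Trbc2* from 0.036 to 0.12, with none called.

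DESeq2 called 582 genes higher and 445 lower, and a threshold of 0.05 gave 702 and 472. Leaving out 1 library gave 70 to 945 higher and 40 to 464 lower, with the lone *Tet2/3* DKO library assumed to vary like WT in 2 of these. *Cd4* lost its call under the legacy moderation and without any 1 WT library. Replicate numbers name different mice. Deviations from the group mean of same-numbered libraries correlated at 0.0076 and 0.037 over 7981 genes, and those of WT 3 and *Tet2/3* DKO 1 at 0.031. With 2 *Tet2/3* DKO libraries their deviations mirror each other, so these values cannot show whether libraries were paired. With the replicate block 233 genes were called higher and 126 lower, *Klrb1c* lost its call, *Trac*, *Trbc1* and *Trbc2* were at log2 fold changes of -0.042, 0.34 and 0.12, and the mean difference within numbers was -20.9 reads per-million for TRB rows. Only 2 *Tet2/3* DKO mice and TRA depths down to 6401 reads limit what can be seen.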
